A study of Mus musculus with 6 samples.

Results

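The p53 target genes are the genes that the tumour suppressor p53 is known to switch on when DNA is damaged or a cell is otherwise stressed. 34 established targets of arrest, repair, metabolism and apoptosis were chosen by name from the 24453 gene symbols of the count files, with Cdkn1a left out. The choice rule uses names and no measured value, but the members were chosen with earlier results of these data known. Their share of calls is therefore a description and not a test of the list. All 34 symbols were found. RNA sequencing measured expression in 6 libraries of interfollicular epidermis of newborn mice (postnatal day 0), sorted from back skin as EpCAM-positive, Sca1-positive cells with high α6-integrin. 3 libraries carry the genotype label Control and 3 the label Ring1a-/- Ring1b-/-. Ring1a and Ring1b are the ubiquitin ligases of Polycomb repressive complex 1. The alleles of the controls, the deleted parts and what drove the deletion are not given in the sources used here, nor is it said whether each library came from a separate animal. The p-values therefore rest on the spread of these samples alone, and part of it may be technical. Control-labelled replicates 1 to 3 are called C1, C2 and C3, and knockout-labelled replicates 1 to 3 are called K1, K2 and K3. Where a gene has 3 values against 3, the order is that of the replicates, control-labelled first.

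p53 is a transcription factor that is made continuously and destroyed as fast through the ubiquitin ligase Mdm2. Kinases of the DNA damage response free it from Mdm2, and it then binds DNA as a tetramer at sites built from a repeated decamer. Its targets halt division, repair DNA, change metabolism or start apoptosis through mitochondria and death receptors. Mdm2 is itself a target, which closes a feedback loop. In skin p53 is known for the response to ultraviolet light, and its relative p63, which binds similar sites, keeps the epidermis stratified.

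Promoter sequences are shown for the letters that some of these genes share near their start. RefSeq promoter windows (GRCm38.p6, 250 bases before to 50 after a transcript start) were matched by symbol for 26 of the 34 members. They were searched for the p53 decamer, whose consensus reads the same on both strands. A decamer without mismatch was found in 9 of the 26 members (34.6%) and in 9.55% of 27025 genes with a window. Paired decamers, at most 13 bases apart and with at most 2 mismatches in all, were found in 8 members (30.8%) and in 11.5% of all genes, and the 2 searches overlap. The members were chosen as p53 targets, so a higher share than among all genes is part of the choice. Of the 9 members that rose in the comparison below, 6 had a window and 3 of those held a decamer, as did 6 of 20 other members with a window. The windows of those 3 risen members, Ccng1 (chr11:40755237-40755536, minus strand), Bax (chr7:45466849-45467148, minus strand) and Aen (chr7:78895677-78895976, plus strand), are printed with the paired decamers in capitals.
Ccng1: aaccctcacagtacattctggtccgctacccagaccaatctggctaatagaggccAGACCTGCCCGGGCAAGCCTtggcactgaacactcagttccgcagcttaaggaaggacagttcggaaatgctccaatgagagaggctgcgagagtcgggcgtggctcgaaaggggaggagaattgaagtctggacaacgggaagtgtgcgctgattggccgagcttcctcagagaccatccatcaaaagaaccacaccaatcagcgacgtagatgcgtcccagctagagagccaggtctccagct
Bax: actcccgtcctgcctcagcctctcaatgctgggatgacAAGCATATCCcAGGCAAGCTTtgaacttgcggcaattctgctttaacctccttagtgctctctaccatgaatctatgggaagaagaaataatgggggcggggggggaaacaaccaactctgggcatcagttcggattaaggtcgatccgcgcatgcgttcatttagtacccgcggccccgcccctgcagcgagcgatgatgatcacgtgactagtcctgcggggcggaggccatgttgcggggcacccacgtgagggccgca
Aen: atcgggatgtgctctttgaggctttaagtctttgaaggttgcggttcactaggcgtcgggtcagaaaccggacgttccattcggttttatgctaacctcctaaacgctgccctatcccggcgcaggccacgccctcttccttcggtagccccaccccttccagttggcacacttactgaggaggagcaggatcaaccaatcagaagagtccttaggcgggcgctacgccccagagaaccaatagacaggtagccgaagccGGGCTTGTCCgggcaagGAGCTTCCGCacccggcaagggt
In Ccng1 the paired decamers lay next to each other from base -195 of the transcript start, with 1 mismatch. In Bax they began at base -212 with 1 base between them and 1 mismatch. In Aen they began at base 11, 7 bases apart, with 2 mismatches. A second RefSeq window of Aen, from another transcript start, places the same letters at base -121. The best pairs of the other members with a pair are printed because these genes did not pass the test although their windows hold the motif.
Gtse1: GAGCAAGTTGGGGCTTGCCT
Polk: GAACTAGCCTcAAACTTATTC
Ckap2: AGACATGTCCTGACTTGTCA
Trp73: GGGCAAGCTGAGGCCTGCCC
Sesn1: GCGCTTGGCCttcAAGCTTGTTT
Pairs with 1 mismatch lay in a window of Gtse1 and of Polk, and pairs with 2 in a window of Ckap2, Trp73 and Sesn1. Gtse1, Polk, Trp73 and Sesn1 each have another window, from another transcript start, that held no decamer and no pair. The windows of Mdm2 and Ei24 held a decamer at bases -186 and -10 and no pair. A match is a stretch of letters, not a measured binding site, and sites in introns or farther upstream lie outside these windows.

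The libraries held 18951665 to 31187270 counts, and levels are given as CPM, the counts scaled to a common library size with the TMM factors of edgeR (0.927 to 1.04). Ring1, the gene of Ring1a, had 30.9, 17.1 and 3.90 CPM against 1.66, 5.20 and 14.2 CPM. K3 thus lay above C3, against the labels, and its group difference did not pass (edgeR adjusted p = 0.389). Rnf2, the gene of Ring1b, had 43.2 to 63.2 and 55.4 to 64.1 CPM, and reads outside a deleted part count too, so it checks no label. Xist, the transcript of the inactive X chromosome, was high in C3, K1 and K2 (1757 to 6133 CPM) and at 4.48 to 10.5 CPM in the others, so it split the libraries otherwise than the labels. On the first principal component (56.7% of the variance) the libraries lay apart by label, at -84.6, -64.0 and -71.0 against 93.5, 68.4 and 57.8. C1 and K1 stood apart from the other 4 on the second principal component (18.5%). Results are therefore also given without the replicate 3 and without the replicate 1 libraries. Of the markers of basal epidermis, 7 of 7 were counted in all libraries, at summed levels of 27771 to 42034 CPM in the control-labelled and 24728 to 29667 CPM in the knockout-labelled ones. Of these 7, 1 fell, the hemidesmosome collagen Col17a1 (-0.74 on the log2 scale, adjusted p = 0.0278, edgeR). Of 7 suprabasal markers 6 were found and 0 were called, with 1 at an unadjusted p under 0.05. Their summed level was 2086 to 5004 CPM in the control-labelled and 1063 to 3722 CPM in the knockout-labelled libraries. Krt1 had 1346, 2578 and 1734 CPM against 589, 1538 and 1774 CPM. Krt10 had 593, 2056 and 1254 CPM against 322, 1506 and 1600 CPM. Epcam, a marker of the sort, had 168, 131 and 116 CPM against 381, 216 and 207 CPM, with no overlap, and did not pass (adjusted p = 0.0598, edgeR). The summed levels of fibroblast (7 markers), endothelial (6), melanocyte (6) and immune (7) markers overlapped between groups, and 0 of them were called. At an unadjusted p under 0.05 there were 2 fibroblast and 2 melanocyte markers. Of 6 Merkel cell markers 3 rose (Krt18, Sox2 and Isl1), from a summed level of 0.612 to 1.43 CPM to one of 27.5 to 75.0 CPM, while the defining markers Atoh1 and Pou4f3 stayed between 0 and 0.342 CPM. Krt20 was not tested, with 0, 3 and 4 counts against 63, 7 and 1. Of 7 hair follicle markers Krt25 and Krt71 fell (summed level of all 7, 118 to 407 and 183 to 533 CPM). A log2 fold change above 0 was seen in 3 of the 7. Lhx2 had 53.2, 22.9 and 11.2 CPM against 58.2, 64.5 and 64.4 CPM, with no overlap (adjusted p = 0.194, edgeR). Sox9 had 307, 85.9 and 89.0 CPM against 460, 105 and 117 CPM. Sox9, Shh and Lgr5 were highest in C1 among the controls and in K1 among the knockout-labelled libraries, and the other markers of the list were not. The part of these cells in the results was not tested, and in sorted bulk RNA fewer cells of a type and less RNA per cell cannot be told apart.

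Among the p53 targets 9 rose in the knockout-labelled libraries and 0 fell. The risen genes were Sulf2, Zmat3, Ccng1, Plk3, Aen, Bax, Pmaip1, Tnfrsf10b and Phlda3, by 2.11-fold to 9.84-fold. Mdm2, Fas and the repair genes did not pass. 33 of the 34 members were tested, each with at least 47 counts in every library, and Gdf15 had too few. The background over all 14890 tested genes was 7.17% called higher and 2.98% called lower (edgeR quasi-likelihood test, adjusted p under 0.05), 10.2% in all, against 27.3% of the 33. For the 0 lower members, DESeq2 called 1 (Ckap2, background 6.02% lower) and limma-voom 0 (background 3.22%), and 15 of the 33 had an unadjusted p under 0.05 in either direction, against 24.3% of all tested genes. No overlap in CPM between the 2 groups was seen in 12 members that were higher and 4 that were lower, and the background was 17.6% and 14.8% (32.4% in either direction). The median log2 fold change was 0.62 over the 33 and 0.00 over all tested genes, and 24 of the 33 values were above 0, as were 50% of all. With a correction for GC content and length of the transcripts 8 members rose (background 5.96% higher). That correction moved the median of all genes by -0.15 and the share of calls that were higher from 70.6% to 45.9%, and the median of the members was then 0.37, which is 0.52 above that of all genes. The plot of fold changes sets the members side by side.

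**Figure D1:**
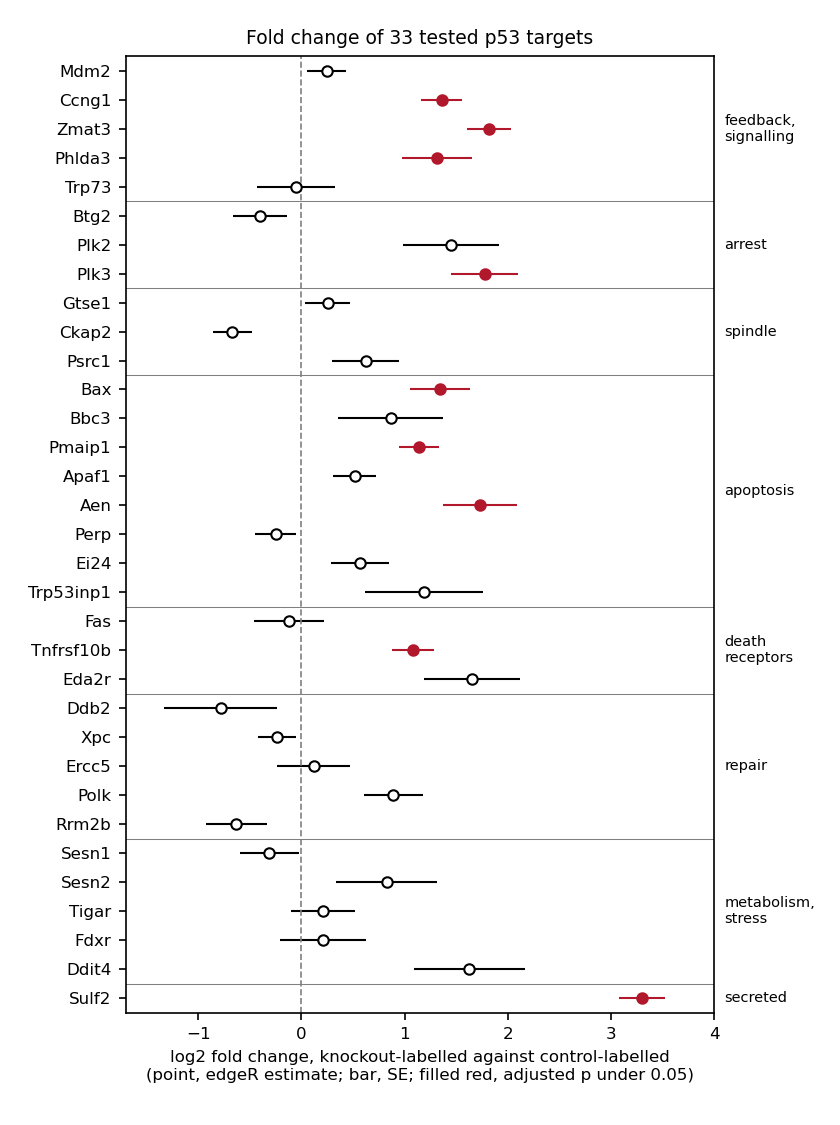
Log2 fold change (horizontal axis, edgeR estimate with SE bars, 3 libraries per group) of the 33 tested p53 targets (vertical axis), ordered by role. The 9 filled red points passed at an adjusted p under 0.05, and Sulf2 lies farthest right at 3.30.

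The count of risen members depended on which libraries were used. It was 3 with replicates 1 and 2 alone, which leaves out the pair of libraries whose Ring1 ran against the labels (Zmat3, Plk3 and Sulf2, background 2.37% higher). It was 18 with replicates 2 and 3 alone, which leaves out the libraries apart on the second component (background 10.9%). It was 8 without C1 (background 5.81%) or C2 (5.27%), 6 without C3 (4.12%), K2 (4.22%) or K3 (4.92%), and 11 without K1 (6.26%). Sulf2, Zmat3, Ccng1, Plk3 and Pmaip1 were called in each of these 6 fits. All 6 libraries by other methods gave 13 with DESeq2 (background 11%), 12 of 34 without a count filter (6.06%), 10 with limma-voom (7.35%), 10 with a replicate block (6.82%) and 6 with Xist as a covariate (4.3%). The plot of calls by setting shows each of them.

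**Figure D2:**
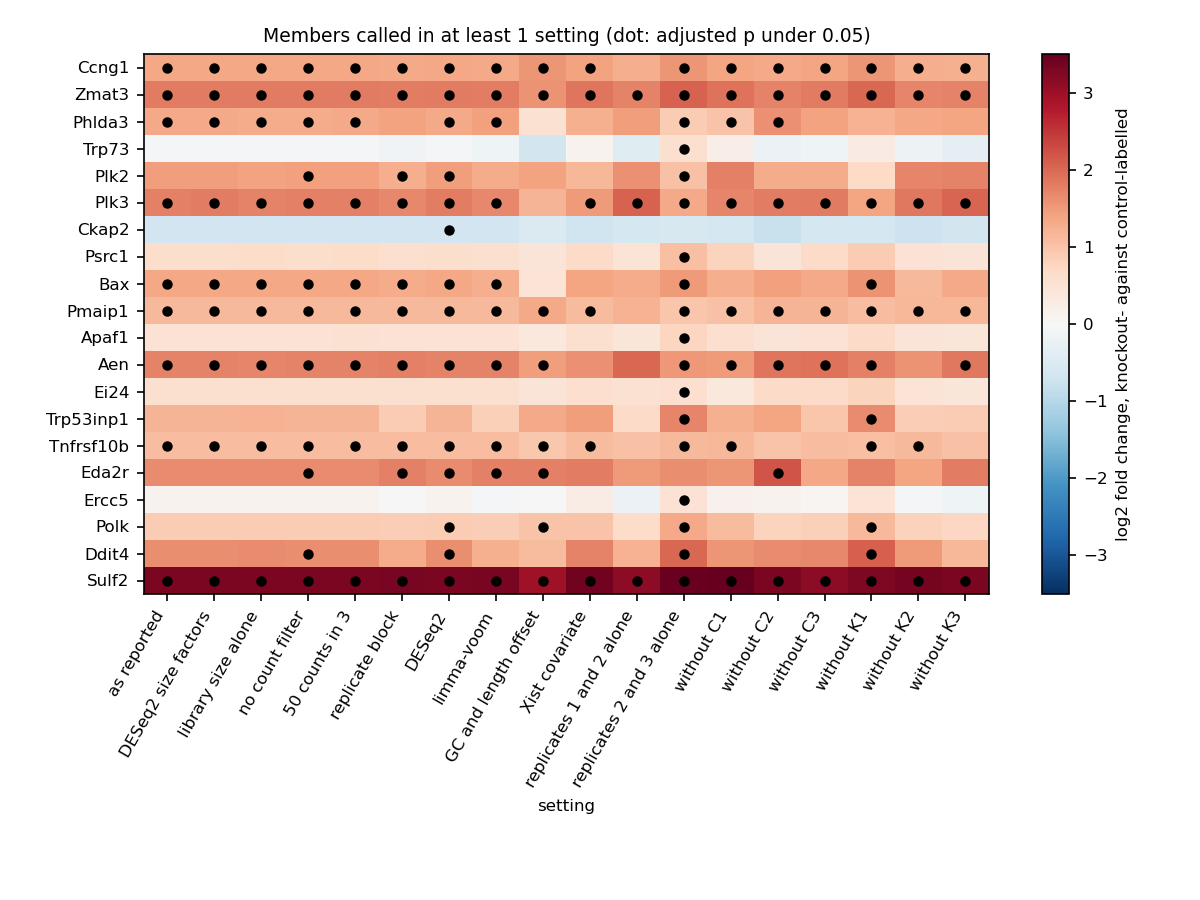
Log2 fold change (colour) of the 20 members called in at least 1 of 18 settings (rows) by setting (columns), with a dot where the adjusted p was under 0.05. Sulf2 and Zmat3 carry a dot in each column, and the column of replicates 2 and 3 alone holds 18.

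The knockout-labelled libraries were not alike in these genes. On the scale of log2(CPM + 0.5) against the control mean, the median of the 33 members was 0.03 in K1, 0.81 in K2 and 0.85 in K3, and 0.01 to 0.08 in C1, C2 and C3. Over all tested genes these medians lay between 0.00 and 0.02. K1 was the lowest of the 3 knockout-labelled libraries in 20 members (60.6%, against 42.7% of all tested genes) and the highest in 7 (21.2%, against 39.8%). In 3 members, Trp53inp1, Ercc5 and Ddit4, K1 lay under all 3 control-labelled libraries while K2 and K3 lay above all 3, a pattern held by 2.44% of all tested genes. Xist was at 6133 CPM in K1, 4736 CPM in K2 and 4.48 CPM in K3, and its part in this pattern was not tested. The suprabasal keratin Krt10 was at 322 CPM in K1, 1506 CPM in K2 and 1600 CPM in K3. The part of suprabasal cells in this pattern was not tested either. The pattern was noticed in these values and is a description of 3 libraries.

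**Figure D3:**
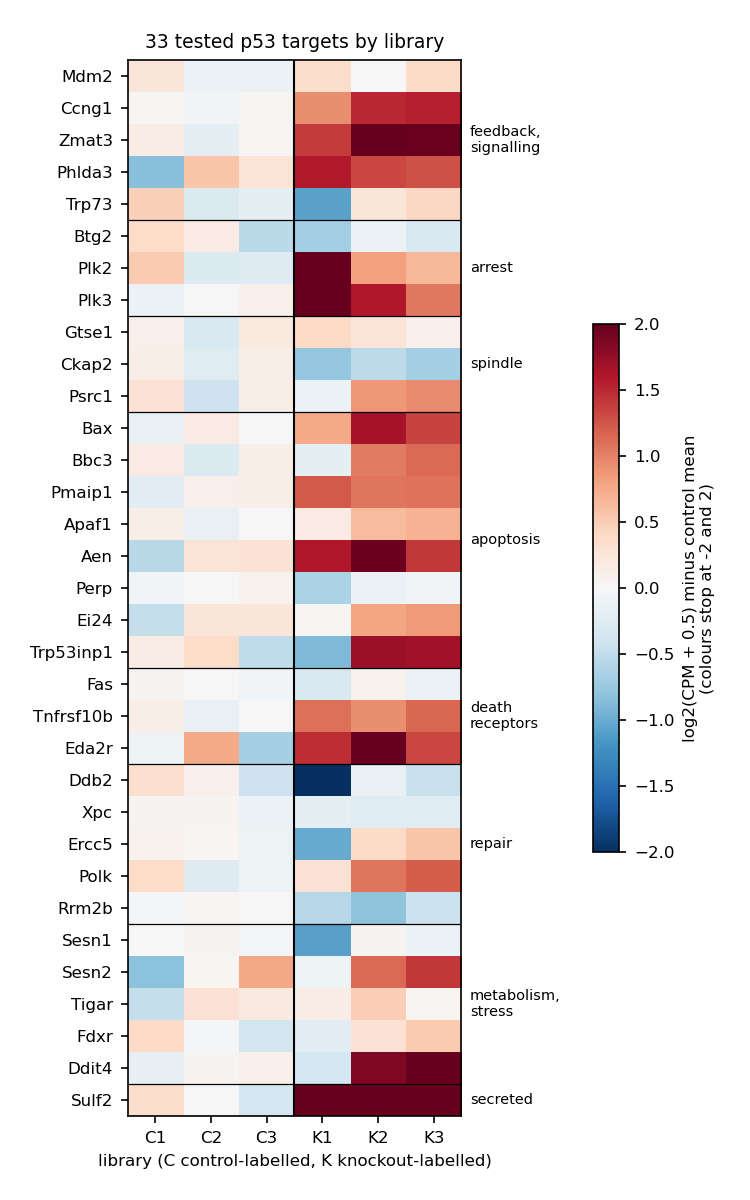
Level of each tested member (rows, by role) in each library (columns) as log2(CPM + 0.5) minus the mean of the control-labelled libraries; colours stop at -2 and 2. K2 and K3 are red in more rows than K1, with medians of 0.81, 0.85 and 0.03.

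Among the genes of feedback, signalling and RNA binding 3 of 5 rose. Zmat3, a zinc finger protein that binds RNA, had 132, 105 and 121 CPM against 312, 480 and 470 CPM. The groups lay far apart, with K1 the lowest of its group, and the log2 fold change was 1.82 ± 0.21 (SE, n = 3 libraries per group; edgeR adjusted p = 0.00165). Ccng1, cyclin G1, which brings a phosphatase to Mdm2, had 107, 101 and 108 CPM against 201, 301 and 310 CPM. Its control-labelled values were within a few CPM of each other and all knockout-labelled values were higher, by 1.36 ± 0.20 on the log2 scale (SE; adjusted p = 0.00473, edgeR; 0.0878 with replicates 1 and 2 alone). Phlda3, which blocks the kinase Akt at the membrane, had 11.1, 30.0 and 24.5 CPM against 61.4, 52.0 and 49.6 CPM. The groups were apart, but C1 was far under the other controls, and the difference of 1.31 ± 0.34 on the log2 scale passed narrowly (SE; adjusted p = 0.0429, edgeR). Its call ended without C3, K1, K2 or K3 (0.0864 to 0.106), with a replicate block (0.0516), with Xist as a covariate (0.119) and with replicates 1 and 2 alone (0.178). It also ended with the GC and length correction, at 0.53 on the log2 scale (adjusted p = 0.327). Its longest transcript has a GC content of 62.6%. Mdm2, the ligase that destroys p53, had 127, 98.5 and 99.1 CPM against 137, 108 and 140 CPM. These ranges overlapped and the difference of 0.25 ± 0.19 on the log2 scale did not pass (SE; adjusted p = 0.476, edgeR). Trp73, the gene of the p53 relative p73, had 99.3, 57.7 and 62.5 CPM against 33.5, 83.8 and 94.9 CPM, with K1 the lowest of all 6. Its log2 fold change was -0.05 ± 0.38 (SE; adjusted p = 0.960, edgeR), and 0.57 with replicates 2 and 3 alone, where it passed (0.0257). Zmat3 lies on chromosome 3 (32334792 to 32366014), Ccng1 on chromosome 11 (40748552 to 40755311) and Phlda3 on chromosome 1 (135766119 to 135769136) of GRCm38.

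Of the antiproliferative protein and the Polo-like kinases 1 of 3 rose. Plk3, a Polo-like kinase of the stress response (chromosome 4, 117128655 to 117133963), had 10.1, 11.1 and 11.8 CPM against 55.6, 34.2 and 23.3 CPM. Every knockout-labelled library was above every control, K1 most, and the log2 fold change was 1.78 ± 0.32 (SE; adjusted p = 0.0111, edgeR). With the GC and length correction it was 1.18 and did not pass (adjusted p = 0.0568). Exons of Tctex1d4 overlap Plk3 on the other strand, and that gene had 0 counts in all libraries. Plk2, a related kinase, had 64.1, 36.4 and 37.0 CPM against 227, 78.1 and 70.1 CPM. The groups did not overlap, yet K1 was far above the other libraries, and the difference of 1.45 ± 0.46 on the log2 scale did not pass (SE; adjusted p = 0.0869, edgeR). It passed with DESeq2 (0.0109), with a replicate block (0.0172) and with replicates 2 and 3 alone (0.00305), and without K1 it was 0.69. Btg2, which recruits a complex that shortens mRNA tails and slows division, had 123, 106 and 64.9 CPM against 58.9, 87.4 and 76.3 CPM. The groups overlapped, at -0.40 ± 0.26 on the log2 scale (SE; adjusted p = 0.403, edgeR). These 3 are also known as genes of the immediate early response. edgeR called 0 of 16 other immediate early and heat shock genes, while DESeq2 called 1 lower (background 6.02%) and limma-voom 0 (3.22%). An unadjusted p under 0.05 was seen in 5 (24.3% of all tested genes), all of them lower. They were Jun (-1.36 on the log2 scale), Atf3 (-2.1), Fos (-0.68), Zfp36 (-0.94) and Ier2 (-0.71). A log2 fold change above 0 was seen in 5 of the 16. The summed level of the 16 was 3099 to 9448 CPM in the control-labelled and 2842 to 5638 CPM in the knockout-labelled libraries. The most abundant, Egr1, had an adjusted p of 0.873 (edgeR). With replicates 2 and 3 alone 5 rose (background 10.9%) and 2 fell (background 1061 of 14945 tested genes). With a replicate block 2 rose (6.82%) and 3 fell (435 of 14890). With the GC and length correction 3 fell (1047 of 14890), and without a count filter 2 fell (533 of 19884). Leaving out C3 gave 1 lower (181 of 15274), and leaving out K1 gave 1 lower (436 of 15281). Their part in the Plk2 and Plk3 values was not tested.

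Of the 8 members of mitochondrial and other intracellular apoptosis 3 rose and 5 did not pass. Bax, which makes pores in the outer mitochondrial membrane (chromosome 7, 45461697 to 45466898), had 8.52, 10.7 and 9.41 CPM against 16.4, 31.4 and 25.1 CPM. The groups were apart, with K1 between the controls and the other knockout-labelled libraries, at 1.35 ± 0.29 on the log2 scale (SE; adjusted p = 0.0216, edgeR). That call ended without C1, C2, C3, K2 or K3 (0.0501 to 0.0960), with Xist as a covariate (0.0609) and with replicates 1 and 2 alone (0.201). With the GC and length correction it was 0.47 (adjusted p = 0.269), and the GC content of its longest transcript is 63.5%. Exons of Gm45808 overlap Bax on the same strand. Pmaip1, the BH3-only protein Noxa, had 19.4, 24.5 and 25.2 CPM against 54.5, 48.6 and 49.2 CPM. All 3 knockout-labelled libraries lay close together and above every control, by 1.14 ± 0.20 on the log2 scale (SE; adjusted p = 0.00852, edgeR; 0.101 with replicates 1 and 2 alone). Aen, a nuclease that helps degrade DNA in apoptosis (chromosome 7, 78895854 to 78911209), had 2.78, 5.24 and 5.40 CPM against 14.1, 18.2 and 12.3 CPM. The groups were apart, by 1.73 ± 0.36 on the log2 scale (SE; adjusted p = 0.0173, edgeR), and the call ended without K2 (0.0802), with Xist as a covariate (0.0575) and with replicates 1 and 2 alone (0.0927). Trp53inp1, a stress protein that promotes p53-dependent death, had 62.7, 73.2 and 39.8 CPM against 30.7, 186 and 183 CPM. K2 and K3 were above every control and K1 under every control, and the difference of 1.19 ± 0.57 on the log2 scale did not pass (SE; adjusted p = 0.245, edgeR). Without K1 it was 1.66 and passed (0.00961).

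The other apoptosis genes did not pass either. Bbc3, the BH3-only protein Puma, was scarce, with 2.96, 2.05 and 2.84 CPM against 2.22, 5.82 and 6.30 CPM. K1 lay within the controls and the other knockout-labelled libraries above them (0.86 ± 0.51 on the log2 scale, SE; adjusted p = 0.343, edgeR). With the GC and length correction the sign turned, to -0.25 (adjusted p = 0.788), and the GC content of its longest transcript is 65.2%. Apaf1, the scaffold of the apoptosome, had 39.7, 32.7 and 36.4 CPM against 40.4, 56.6 and 58.7 CPM, at 0.52 ± 0.21 (SE; adjusted p = 0.175, edgeR). Ei24, an endoplasmic reticulum protein of autophagy, had 70.9, 117 and 117 CPM against 101, 171 and 179 CPM, at 0.57 ± 0.28 (SE; adjusted p = 0.257, edgeR). In both genes K1 was the lowest of its group. Perp, a membrane protein of desmosomes that is also a target of p63, was by far the most abundant member. It had 2358, 2431 and 2564 CPM against 1578, 2264 and 2348 CPM, and per length of exon its control mean was 1256 CPM per kb, while the other members had 0.179 to 35.7 CPM per kb. K1 was lowest and the groups did not overlap, but the difference of -0.25 ± 0.20 on the log2 scale did not pass (SE; adjusted p = 0.493, edgeR).

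**Figure D4:**
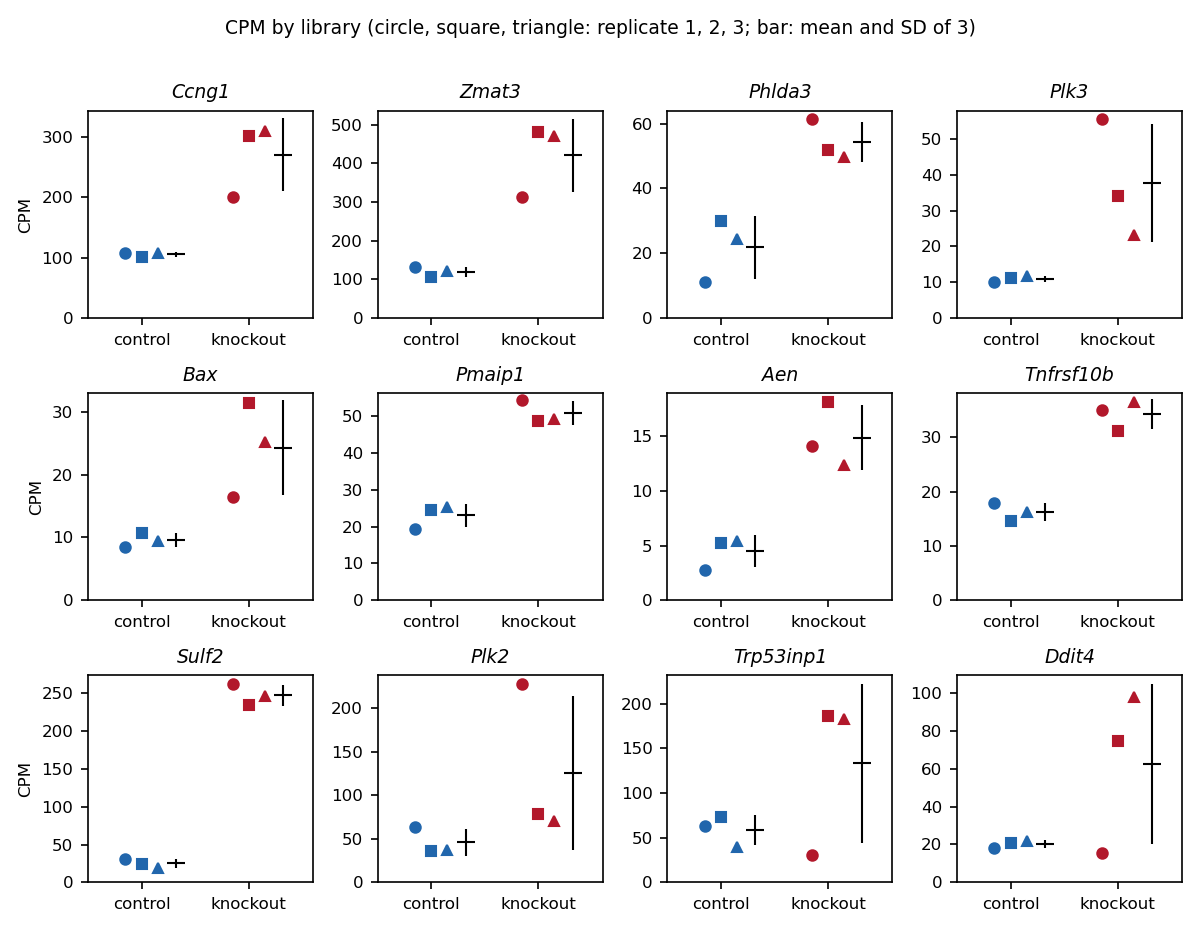
CPM in each library for the 9 members that rose and for Plk2, Trp53inp1 and Ddit4, with the mean and SD of 3 libraries beside each group; each vertical axis starts at 0. In the 9 risen genes every red point lies above every blue point, and in Trp53inp1 and Ddit4 K1 (red circle, 30.7 and 15.7 CPM) lies under the controls.

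Of the 3 death receptors 1 rose. Tnfrsf10b, the mouse receptor for the death ligand TRAIL (chromosome 14, 69767472 to 69784411), had 17.8, 14.6 and 16.2 CPM against 35.1, 31.1 and 36.5 CPM. Both groups were tight and apart, at 1.08 ± 0.20 on the log2 scale (SE; adjusted p = 0.0126, edgeR). The call ended narrowly without C2, C3 or K3 (0.0511 to 0.0584), and with replicates 1 and 2 alone (0.191). Eda2r, an X-linked receptor for a form of ectodysplasin, had 3.26, 6.29 and 2.05 CPM against 10.7, 16.2 and 9.62 CPM. The groups did not overlap, and the difference of 1.65 ± 0.46 on the log2 scale missed the threshold (SE; adjusted p = 0.0572, edgeR). It passed with DESeq2 (0.00520), limma-voom (0.0366), a replicate block (0.0235) and the GC and length correction (0.0423), and without C2 (0.0276). Fas, the receptor of Fas ligand, had 5.78, 5.59 and 5.30 CPM against 4.40, 5.87 and 5.10 CPM. These values overlapped, with a log2 fold change of -0.12 ± 0.34 (SE; adjusted p = 0.877, edgeR).

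In DNA repair and nucleotide supply edgeR called 0 of 5 members, 1 of which had an unadjusted p under 0.05, while DESeq2 called 1 (Polk) and limma-voom 0. Ercc5, the nucleotide excision repair endonuclease XPG, had 85.3, 82.7 and 75.0 CPM against 39.8, 105 and 119 CPM. K1 lay under all controls and K2 and K3 above them (0.12 ± 0.35 on the log2 scale, SE; adjusted p = 0.883, edgeR). With replicates 2 and 3 alone it passed (0.0319). Polk, a polymerase that copies past damaged bases, had 53.6, 34.6 and 38.9 CPM against 50.9, 88.4 and 96.6 CPM. Its log2 fold change was 0.89 ± 0.28 (SE; adjusted p = 0.0854, edgeR), and it passed without K1 (0.0212), with DESeq2 (0.0281) and with the GC and length correction (0.0463). Ddb2, which recognises ultraviolet lesions, had 16.4, 14.1 and 9.65 CPM against 2.18, 11.8 and 9.42 CPM. K1 was far under the rest (-0.78 ± 0.55 on the log2 scale, SE; adjusted p = 0.430, edgeR), and exons of Acp2 overlap Ddb2 on the other strand. Acp2 had 29.4, 30.1 and 27.5 CPM against 18.7, 21.9 and 22.0 CPM, with no overlap (edgeR adjusted p = 0.179). Its part in the Ddb2 value was not tested. Xpc, the damage sensor of nucleotide excision repair, had 32.1, 31.9 and 28.4 CPM against 26.8, 25.8 and 25.8 CPM. Rrm2b, a subunit of ribonucleotide reductase, had 9.19, 9.62 and 9.27 CPM against 6.13, 5.15 and 6.86 CPM. Both were lower in all 3 knockout-labelled libraries than in any control, at -0.24 and -0.63 on the log2 scale, and neither passed (adjusted p of 0.489 and 0.236, edgeR).

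In metabolism and stress edgeR called 0 of 5 members, 1 of which had an unadjusted p under 0.05, while DESeq2 called 1 (Ddit4) and limma-voom 0. Ddit4, an inhibitor of the growth kinase mTOR that also answers to hypoxia and glucocorticoids, had 18.01, 20.9 and 21.7 CPM against 15.7, 74.4 and 97.5 CPM. K1 lay just under the controls and the other knockout-labelled libraries far above them. The log2 fold change of 1.63 ± 0.54 did not pass (SE; adjusted p = 0.0980, edgeR), and without K1 it was 2.09 and passed (0.00179). Sesn2, a sestrin that restrains mTOR when amino acids are short, had 6.90, 13.02 and 22.0 CPM against 11.7, 28.2 and 34.6 CPM (0.83 ± 0.49 on the log2 scale, SE; adjusted p = 0.347, edgeR). Sesn1, the sestrin most closely tied to p53, had 52.9, 55.0 and 51.7 CPM against 24.8, 55.0 and 49.1 CPM (-0.31 ± 0.29, SE; adjusted p = 0.565, edgeR). K1 was the lowest library of its group in both. Tigar, an enzyme that slows glycolysis, had 6.98 to 12.2 CPM in the controls and 10.1 to 14.2 CPM in the knockout-labelled libraries. Fdxr, a mitochondrial reductase, had 3.22 to 5.78 and 3.57 to 6.37 CPM. Both overlapped between groups, at 0.21 each on the log2 scale, with adjusted p-values of 0.748 and 0.813 (edgeR). With the GC and length correction Fdxr was at -0.45 (adjusted p = 0.503).

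Sesn2 and Ddit4 also answer to the transcription factor ATF4, so the genes of the integrated stress response were read beside them. Of 16 such genes 3 rose (background 7.17% higher over all tested genes). Slc7a11, the cystine transporter, had 2.40, 6.51 and 2.02 CPM against 27.2, 23.9 and 19.4 CPM, with no overlap (edgeR adjusted p = 0.00853). Shmt2, of mitochondrial folate metabolism, rose by 0.88 on the log2 scale (adjusted p = 0.0131, edgeR), and Slc7a5, a carrier of large amino acids, by 1.35 (0.0289). Their calls ended without C3, K2 or K3 for Shmt2 (0.0512 to 0.0606), without C1, C2 or C3 for Slc7a5 (0.0621 to 0.109), with Xist as a covariate for Slc7a5 (0.108), and with the GC and length correction for both (0.158 and 0.113). With replicates 1 and 2 alone 0 of the 3 passed. DESeq2 and limma-voom called 3 higher each (background 11% and 7.35%). Of the 16, 4 had an unadjusted p under 0.05 (24.3% of all tested genes) and 13 a log2 fold change above 0. Ddit3, Phgdh and Ppp1r15a were at -0.47, -0.47 and -0.56 and did not pass (adjusted p of 0.633, 0.316 and 0.380, edgeR). The summed level of the 16 genes was 872 to 897 CPM in the control-labelled and 1230 to 1436 CPM in the knockout-labelled libraries. In K1, K2 and K3 Slc7a5 held 443, 197 and 217 CPM of it and Psat1 310, 582 and 435 CPM. The part of this response in the Sesn2 and Ddit4 values was not tested.

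Among the microtubule and spindle proteins edgeR called 0 of 3, and 1 had an unadjusted p under 0.05, while DESeq2 called 1 lower (Ckap2) and limma-voom 0. Ckap2, which stabilises spindle microtubules, had 80.1, 61.4 and 79.4 CPM against 42.8, 50.7 and 45.5 CPM. Every knockout-labelled library was under every control, and the difference of -0.67 ± 0.19 on the log2 scale missed the threshold (SE; adjusted p = 0.0590, edgeR). Psrc1, which helps turn over spindle microtubules, had 26.3, 16.1 and 23.4 CPM against 19.8, 39.8 and 41.9 CPM (0.62 ± 0.32, SE; adjusted p = 0.282, edgeR). Gtse1, a microtubule protein that also opposes p53, had 24.5, 18.4 and 26.2 CPM against 30.2, 27.6 and 24.6 CPM (0.25 ± 0.22, SE; adjusted p = 0.536, edgeR). These 3 are genes of dividing cells as well. edgeR called 0 of 20 other mitosis genes, 8 of them with an unadjusted p under 0.05 (background 24.3%). DESeq2 called 3 lower (background 6.02%) and limma-voom 0 (3.22%). Only 1 of the 20 had a log2 fold change above 0, and their median was -0.54. Their summed level was 3599 to 6820 CPM in the control-labelled and 2619 to 4121 CPM in the knockout-labelled libraries, so the groups overlapped. The most abundant, Mki67, had an adjusted p of 0.150 (edgeR). Lower calls among them numbered 5 with replicates 2 and 3 alone (background 1061 of 14945 tested genes) and 4 without K1 (436 of 15281). They numbered 3 with the GC and length correction (1047 of 14890). They numbered 2 without C2 (269 of 15398) and with a replicate block (435 of 14890). They also numbered 2 with library size alone (426 of 14890) and without a count filter (533 of 19884). Their part in the Ckap2 value was not tested.

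The secreted proteins held the gene with the largest change and the gene with the fewest counts. Sulf2, an extracellular sulfatase that trims heparan sulfate (chromosome 2, 166073089 to 166155663), had 31.5, 24.7 and 19.3 CPM against 262, 234 and 247 CPM. The 3 knockout-labelled values lay close together and far above the controls, by 3.30 ± 0.22 on the log2 scale or 9.84-fold (SE; adjusted p = 0.000303, edgeR). Between 3.13 and 3.49 with any 1 library left out, it was called in each of those fits. Exons of Ncoa3 overlap Sulf2 on the other strand, and Ncoa3 had 99.5 to 124 CPM in the controls and 96.0 to 99.6 CPM in the knockout-labelled libraries (edgeR adjusted p = 0.531). Gdf15, a stress hormone of the TGF-β family, had 21, 0 and 6 counts against 3, 0 and 1. It was not tested, and a library with 0 counts could hold up to 3, which is 0.131 CPM in C2 and 0.154 CPM in K2. These limits cover counting error only.

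p53 itself did not pass. Trp53 had 405, 281 and 284 CPM against 301, 234 and 218 CPM. The groups overlapped, at -0.37 ± 0.21 on the log2 scale (SE; adjusted p = 0.332, edgeR). Of 26 tested regulators and cofactors of p53 (28 symbols listed, 27 of the symbols found), Trp53 included, 3 fell and 0 rose (background 2.98% lower and 7.17% higher). An unadjusted p under 0.05 was seen in 5 (24.3% of all tested genes). DESeq2 and limma-voom called 4 lower each (background 6.02% and 3.22%) and 0 higher. Trp63, the gene of p63, fell by 0.79 on the log2 scale (adjusted p = 0.0176, edgeR). Chek1, a checkpoint kinase, had 25.2, 35.9 and 32.9 CPM against 11.6, 18.02 and 11.3 CPM (-1.20 ± 0.27, SE; adjusted p = 0.0247, edgeR), and Trp53bp1, which binds at DNA breaks, fell by 0.77 (0.0457). The call of Trp63 ended when C2, C3, K2 or K3 was left out (0.0683 to 0.0880), that of Chek1 without C2, C3, K1 or K3 (0.0546 to 0.0916) and that of Trp53bp1 without any 1 of the 6 (0.0744 to 0.165). With Xist as a covariate 1 of the 3 calls was left, and those of Chek1 (0.0552) and Trp53bp1 (0.133) ended. That of Trp53bp1 also ended with a replicate block (0.0609). With replicates 1 and 2 alone 0 of these regulators were called. With replicates 2 and 3 alone 4 were lower (background 1061 of 14945 tested genes) and 1 higher (10.9%).

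Of 32 tested p53 targets outside the 34 (35 listed), 4 rose and 0 fell (background 7.17% higher and 2.98% lower). An unadjusted p under 0.05 was seen in 14 (24.3% of all tested genes). DESeq2 called 7 higher and 1 lower (background 11% and 6.02%), and limma-voom 5 and 0 (7.35% and 3.22%). Their median log2 fold change was 0.42, and 21 of the 32 values were above 0. Gadd45a, Thbs1 and Pltp were lower in all 3 knockout-labelled libraries than in any control, as were 14.8% of all tested genes. They were at -0.92, -1.20 and -0.84 on the log2 scale and did not pass (adjusted p of 0.219, 0.0909 and 0.115, edgeR). Ptp4a3, a phosphatase, had 4.65, 10.3 and 7.42 CPM against 26.8, 38.5 and 36.8 CPM (2.19 ± 0.33, SE; adjusted p = 0.00484, edgeR). Cyfip2, an actin regulator, had 6.26, 2.19 and 2.60 CPM against 20.6, 17.3 and 19.3 CPM (edgeR adjusted p = 0.0106). In both genes the groups were far apart. Tgfa, a ligand of the EGF receptor, had 10.8, 21.8 and 13.6 CPM against 308, 73.9 and 63.5 CPM, with K1 far above the rest (edgeR adjusted p = 0.0133). The fourth, Rps27l, named after its value was seen, rose by 0.76 on the log2 scale (adjusted p = 0.0487, edgeR). The call of Tgfa ended without C1 or C3 (0.0596 and 0.0564) and that of Rps27l without any 1 library (0.0688 to 0.160). With Xist as a covariate those of Tgfa (0.0633) and Rps27l (0.138) ended. With replicates 1 and 2 alone those of Ptp4a3 (0.0696), Cyfip2 (0.107) and Rps27l (0.208) ended. The count of higher calls was 2 without C1 (background 5.81%), with Xist as a covariate (4.3%) and with replicates 1 and 2 alone (2.37%). It was 5 without K1 (6.26%) and 7 with replicates 2 and 3 alone (10.9%). Lower calls numbered 3 with replicates 2 and 3 alone, where 1061 of 14945 tested genes were lower. They numbered 2 without K1 (436 of 15281), with a replicate block (435 of 14890) and with the GC and length correction (1047 of 14890). Without a count filter there was 1 (533 of 19884).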

How the data were processed

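The 6 deposited files hold whole-number counts by gene symbol, as the authors made them, 1 sample per file. Per the submitters' processing notes HTSeq 0.6.1, TopHat2 2.0.13, DESeq2 1.6.3 and Cufflinks 2.2.1 were used with mm10. Their roles, the annotation and the strand setting are not given in the sources used here. Genes that overlap may share reads. Per the labels' protocols 10 ng of RNA was amplified with the Ovation V2 kit and read as single reads, and no molecular identifiers are named.

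Groups and replicate numbers came from the titles. The members and gene lists were chosen with earlier results of these data known. The count comparison used edgeR 4.0.16 (R 4.3.3) with TMM, filterByExpr (minimum count 10, minimum total 15), a quasi-likelihood F test without covariates, two-sided, and Benjamini-Hochberg adjustment over all tested genes, called under 0.05. CPM uses TMM library sizes, and the prior count was 0.125. Every called member, and the most abundant member of each of 8 roles, is given in every library, with up to 3 called genes of each other list. Alternatives were DESeq2 1.42.0 and its size factors, limma-voom (limma 3.58.1), library size alone, no count filter or at least 50 counts in 3 samples, a replicate block, Xist as a covariate, a correction by an offset for GC and length of the transcripts (GENCODE M21, known for 97.8% of tested genes), replicates 1 and 2 or 2 and 3 alone, and leaving out each library. The edgeR fit, the GC and length correction and limma-voom were run on simulated counts without an added GC bias. The other alternatives were not, and no result here rests on that simulation. A chi-square comparison of counts found every pair of libraries to differ beyond sampling noise (30.1 or more per degree of freedom).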

Additional observations from a re-analysis of the deposited data

How the results depend on the processing

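The count of members called higher was 9 as reported, 6 to 11 with 1 library left out, 3 with replicates 1 and 2 alone, 13 with DESeq2, 12 without a count filter, 10 with limma-voom, 8 with the GC and length correction, 6 with Xist as a covariate and 18 with replicates 2 and 3 alone. The count called lower was 0 as reported and 1 with DESeq2 (Ckap2). The median log2 fold change of the members ranged from 0.44 to 0.79 with 1 library left out, was 0.37 with that correction and was 0.84 with replicates 2 and 3 alone. Over all tested genes 1512 were called as reported, 2535 with DESeq2, 816 with Xist as a covariate, 439 with replicates 1 and 2 alone, 811 to 1393 with 1 library left out, and 2694 with replicates 2 and 3 alone. The log2 fold change of Trp73 turned from -0.05 to 0.57 with replicates 2 and 3 alone. Without passing the test in any setting that turned it, the sign also turned with the GC and length correction in Bbc3 (-0.25), Fdxr (-0.45), Gtse1 (-0.05), Fas (0.09) and Ercc5 (-0.01). It turned in further settings, without passing, in Trp73, Ercc5, Fas, Fdxr and Tigar. The cause of these differences was not tested. With 2 libraries in a group the spread is shared with the other group.

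The replicate numbers were not shown to pair the libraries. Deviations from the group means correlated at 0.17, 0.23 and 0.08 for numbers 1, 2 and 3, and every library correlated best with its own number, which is a hint from the data and not from the design. With a replicate block 10 members were called higher, with Plk2 and Eda2r gained and Phlda3 lost, and the median log2 fold change was 0.59. Depth limits Gdf15 (0 to 21 counts), which was not tested.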
